A study of Mus musculus with 12 samples.

Results

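Wnt signalling in the neonatal mouse cochlea was followed through 10 genes: the ligands Wnt4, Wnt5a, Wnt7a and Wnt7b, the receptors Fzd1, Fzd3, Fzd4 and Fzd6, the R-spondin receptor Lgr5 and the target gene Axin2. They were taken by symbol from the array entries that carry a single gene symbol, with the entry of the highest mean signal for a gene with several. All 10 were found among 19938 such genes, and all 10 lay among the 16306 genes tested. Wnt4 had 2 entries and every other member had 1. Expression was measured on 12 Affymetrix Mouse Gene 1.0 ST arrays with RNA of C57BL/6 mice at postnatal day 0 (P0) and postnatal day 8 (P8), without any treatment or altered allele. At each age the cochlear tissue was cut into base, middle and apex, and the dissection was done as a first and a second set, giving 6 groups by age and region with 2 arrays in each. The sample titles give each set a year of its own. Each array holds RNA pooled over many pups, and the base, middle and apex of an age and set are pieces of the same pooled cochleae. The otic capsule had been removed, and the sensory epithelium (organ of Corti), the limbus and the lateral wall stayed together, so that fewer cells of a type and less RNA per cell cannot be told apart.

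Wnt proteins are secreted ligands that bind Frizzled receptors. In the canonical branch, binding spares β-catenin from a destruction complex built on Axin proteins, and β-catenin with TCF/LEF factors then switches on targets, among them Axin2, which encodes a scaffold of that same complex and so acts as negative feedback. Lgr5 binds R-spondins, which raise the response to Wnt, and in the neonatal cochlea it marks a subset of supporting cells that can divide or give rise to hair cells. In the planar cell polarity branch, Wnt5a, Fzd3 and Fzd6 take part in lengthening the cochlear duct and in orienting hair bundles. The comparisons ask how these genes differ along the tonotopic axis from base to apex, and between an age at which hair bundles still mature and one at which they are largely in place.

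Of the 10 members, 5 have an entry in the RefSeq table of promoters (build GRCm38.p6): Wnt4, Wnt7a, Fzd1, Fzd4 and Axin2. The 250 bases before the transcription start are printed 5′ to 3′ on the gene's own strand for Wnt7a and Fzd4, the pair with the highest apex-base difference at P8, and for Axin2, the feedback target. Capitals mark each GC box, the letters GGGCGG or their reverse complement CCGCCC. The Wnt7a stretch is chr6:91411354-91411603 on the minus strand, the Fzd4 stretch is chr7:89404116-89404365 on the plus strand, and the Axin2 stretch is chr11:108920099-108920348 on the plus strand.
Wnt7a: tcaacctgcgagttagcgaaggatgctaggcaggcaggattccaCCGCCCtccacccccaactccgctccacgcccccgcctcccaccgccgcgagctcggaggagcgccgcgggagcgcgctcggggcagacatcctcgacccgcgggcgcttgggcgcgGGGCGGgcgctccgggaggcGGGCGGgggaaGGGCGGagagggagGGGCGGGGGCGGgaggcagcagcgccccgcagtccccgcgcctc
Fzd4: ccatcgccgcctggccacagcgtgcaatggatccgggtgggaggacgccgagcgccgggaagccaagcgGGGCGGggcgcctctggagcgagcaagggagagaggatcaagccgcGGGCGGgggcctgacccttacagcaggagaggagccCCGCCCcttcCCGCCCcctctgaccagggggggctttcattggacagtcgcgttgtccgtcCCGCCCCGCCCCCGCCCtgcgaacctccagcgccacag
Axin2: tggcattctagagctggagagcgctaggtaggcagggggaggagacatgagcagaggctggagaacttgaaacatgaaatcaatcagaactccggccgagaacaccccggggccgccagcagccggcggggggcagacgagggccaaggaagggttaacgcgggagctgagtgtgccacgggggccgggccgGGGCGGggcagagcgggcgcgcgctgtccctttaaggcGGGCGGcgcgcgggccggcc

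The GC box, counted with overlaps on both strands, occurred 6 times before Wnt7a, 7 times before Fzd4 and 2 times before Axin2, and 32.7% of the 32851 promoter stretches of this length in the table held at least 1. Wnt4 held 8 and Fzd1 held 0. These stretches were rich in G and C, at 77.6% for Wnt7a, 72.8% for Fzd4 and 69.2% for Axin2, against a median of 52.4% in the table. The core letters of the TCF/LEF site were searched on both strands as CTTTGA, present in 13.8% of all stretches, and CTTTGT, present in 16.5%. Neither was in the windows of Wnt4, Wnt7a, Fzd4 or Axin2, while Fzd1 held 1 of each. These letters describe the windows only.

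Expression is given as the log2 signal after robust multiarray averaging (RMA), which puts the arrays of a run on a common scale. Whether both dissection sets went through a single run is not given. A signal depends on the probes of its gene, so levels are set only against levels of the same gene. Differences were tested with limma, a linear model fitted over all tested genes, and are followed by their standard error (SE). A gene passed at an adjusted p under 0.05 (Benjamini-Hochberg, over the 16306 genes) with a fold of at least 1.5 between apex and base, or of at least 2 between ages. That fit has no block, so its SE contains the shift between the sets that the pieces of a pool have in common. The same model with the set as a replicate block removes only the part of that shift that both ages share. Its adjusted p is given where it changes a call. A block for the pool of each age and set also takes up a shift that differs between the ages. The 2 arrays of a group differed with a median SD of 0.209 over the tested genes, and precision is limited by having only that many arrays.

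**Figure D1:**
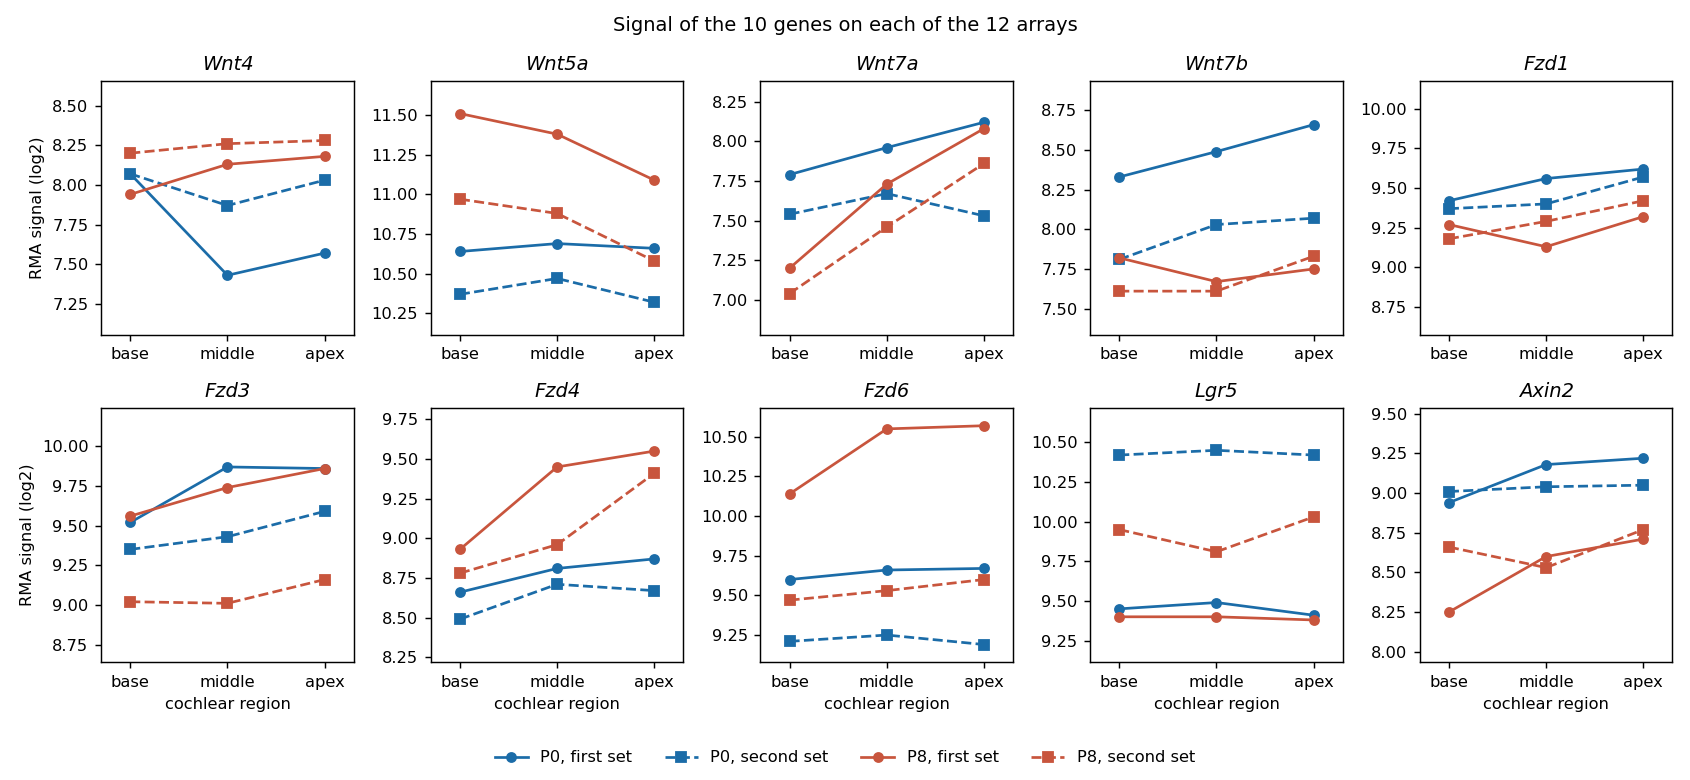
RMA signal (log2) of each of the 10 genes in base, middle and apex, with a panel for each gene and the same vertical span in every panel. Circles with solid lines are the first dissection set and squares with dashed lines the second, blue for P0 and red for P8. Wnt7a was higher at each step from base to apex in both P8 sets, while the Lgr5 lines of the first set lay below those of the second at both ages.

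Between base and apex at P8, the ligand Wnt7a and the receptor Fzd4 showed the highest differences towards the apex among the 10 genes, and the ligand Wnt5a was the single member with a lower mean in the apex. None of the 10 passed the test without the block, where 0.196% of all tested genes did. With the dissection set as a block, Wnt7a and Fzd4 passed, 2 of 10 against 1.58% of all tested genes, and they passed with the pool of each age and set as a block as well, where 2.81% of all genes did. At an unadjusted p under 0.05 without the block, limma likewise counted 2 of the 10, where 4.28% of all genes reached it. The members' median difference was 0.19 on the log2 scale, against 0.00 over all tested genes.

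Wnt7a encodes a secreted Wnt ligand that can act through β-catenin. At P8 its basal, middle and apical signals were 7.20, 7.73 and 8.08 in the first dissection set, and 7.04, 7.46 and 7.86 in the second. Every step towards the apex was upward in both sets, and both apical arrays lay above both basal ones. The apex exceeded the base by 0.85 ± 0.22 (SE, n = 2 arrays per group, a fold of 1.80, 95% interval 0.35 to 1.35), or 0.88 in the first set and 0.82 in the second. The adjusted p was 0.378 without the block, 0.00644 with the dissection set as a block and 0.000652 with the pool as a block. In the model with the set block, the call was lost on leaving out P8 base of the first set, P8 base of the second set or P8 apex of the second set, with adjusted p up to 0.115 and differences of 0.77 to 0.93 over the 12 arrays left out in turn.

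At P0 the Wnt7a signal was 7.79, 7.96 and 8.12 in base, middle and apex of the first set and 7.54, 7.67 and 7.53 in the second. The first set was higher towards the apex and the second had equal ends, with a mean difference of 0.16 ± 0.22 (SE, n = 2, adjusted p = 1.0). By group means the P8 base was lowest at 7.12 ± 0.11 (SD, n = 2), followed by P8 middle at 7.60 ± 0.19, P0 base at 7.66 ± 0.18, P0 middle at 7.82 ± 0.20, P0 apex at 7.82 ± 0.41 and P8 apex at 7.97 ± 0.16. From P8 middle upwards, neighbours in this order differed by less than their SD. In the base, P8 minus P0 was -0.59 in the first set and -0.50 in the second, while in the apex it was -0.04 and 0.32. The apex-base difference at P8 exceeded that at P0 by 0.69 ± 0.31 (SE, n = 2 arrays per group), the widest such change among the members, with an adjusted p of 1.0 without the block, 0.267 with the set block and 0.0759 with the pool block.

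Fzd4 encodes a receptor for Wnt proteins and for norrin, a ligand needed for the capillaries of retina and inner ear. At P8 its signal was 8.93, 9.45 and 9.55 in base, middle and apex of the first set and 8.78, 8.96 and 9.41 in the second. Each step was upward in both sets, in the first mainly between base and middle and in the second mainly between middle and apex. The difference between apex and base was 0.63 ± 0.18 (SE, n = 2 arrays per group, a fold of 1.54, 95% interval 0.22 to 1.03) and came to 0.63 in either set. Its adjusted p was 0.520 without the block, 0.0273 with the set block and 0.00656 with the pool block. With the set block this call held in 6 of 12 fits that left out an array, where that of Wnt7a held in 9, and it was lost without P0 middle, P8 base or P8 apex of either set, with adjusted p up to 0.281 and differences of 0.59 to 0.66.

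The P0 signal of Fzd4 was 8.66, 8.81 and 8.87 from base to apex in the first set and 8.49, 8.71 and 8.67 in the second. The apical arrays again lay above the basal ones, by 0.20 ± 0.18 on average (SE, n = 2, adjusted p = 1.0). The apex-base difference at P8 minus that at P0 was 0.43 ± 0.25 (SE, n = 2 arrays per group, adjusted p = 1.0, and 0.709 with the set block), so that a change of the gradient was not shown. Fzd4 exceeded its P0 signal in all 3 regions of both sets, by 0.28 (base), 0.44 (middle) and 0.71 (apex) as means of the 2 sets. The study also measured Fzd4 by quantitative RT-PCR, on the array RNA and a further replicate. There the apex exceeded the base by more at P0 and only slightly at P8, the reverse order of the arrays. The size of the P8 difference was thus not reproduced by that assay. Fzd4 was higher at P8 than at P0 in that assay too, and the study reports close correlation with the arrays. The cause of the disagreement was not tested.

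**Figure D2:**
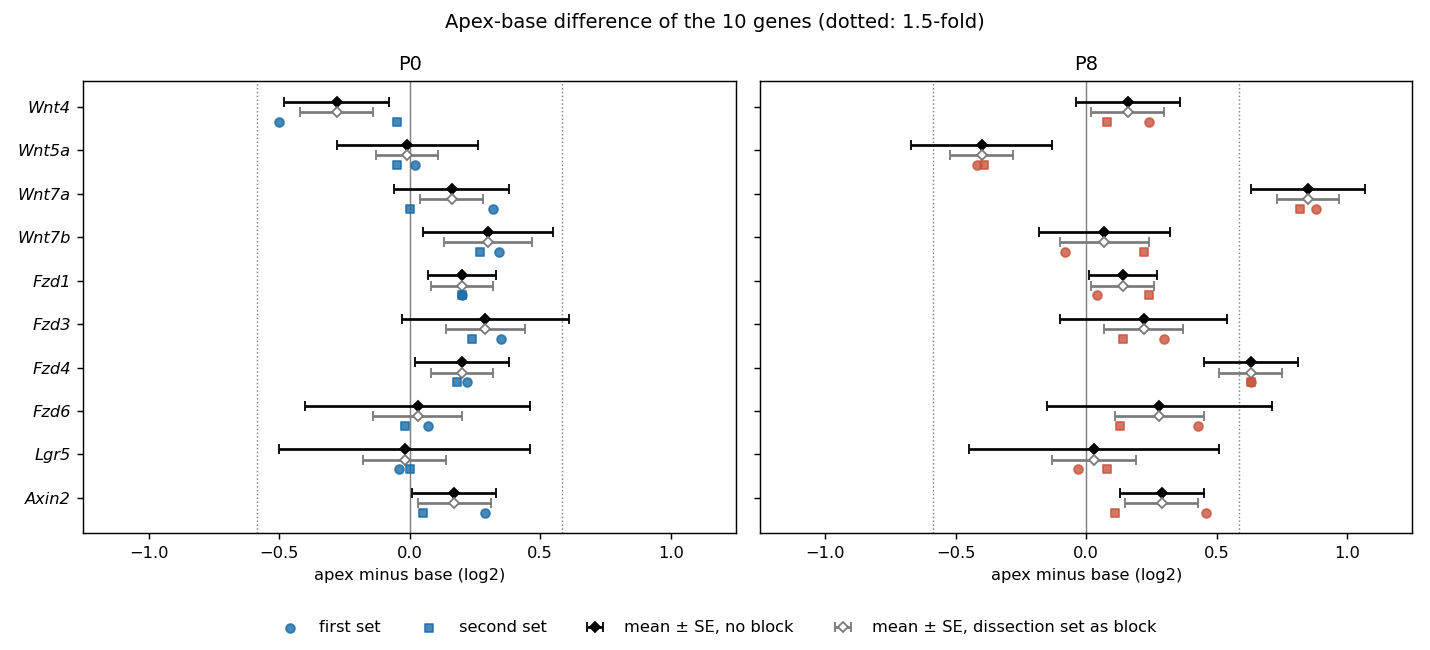
Apex minus base (log2) of each of the 10 genes at P0 (left) and at P8 (right). Circles and squares are the first and second dissection set, filled diamonds the mean ± SE of the model without a block and open diamonds that of the model with the dissection set as a block (n = 2 arrays per group), with dotted lines at a 1.5-fold difference. At P8 the sets of Wnt7a lie at 0.88 and 0.82 and those of Fzd4 at 0.63, past the dotted line, while those of Wnt5a lie at -0.42 and -0.39.

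Wnt5a encodes the ligand best known for the planar cell polarity branch. Its P8 signal was 11.51, 11.38 and 11.09 in base, middle and apex of the first set and 10.97, 10.88 and 10.58 in the second. Each step towards the apex was downward in both sets, and the one between middle and apex was the larger, at -0.29 and -0.30. Apex minus base was -0.40 ± 0.27 (SE, n = 2 arrays per group, adjusted p = 1.0), with -0.42 and -0.39 in the sets. Adjusted p was 0.173 with the set block and 0.0378 with the pool block, at a fold of 1.32 that does not reach 1.5.

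At P0, Wnt5a was 10.64, 10.69 and 10.66 from base to apex in the first set and 10.37, 10.47 and 10.32 in the second. This is a flat profile in both sets, with apex minus base of -0.01 ± 0.27 (SE, n = 2, adjusted p = 1.0). P8 minus P0, averaged over the sets, was 0.74 for base, 0.56 for middle and 0.35 for apex, and it was above 0 in all 6 pairs of region and set. The apex-base difference moved by -0.39 ± 0.38 between the ages (SE, n = 2 arrays per group, adjusted p = 1.0, and 0.757 with the set block).

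For the remaining ligands, Wnt7b and Wnt4, no difference along the axis was detectable at P8. Wnt7b, a close relative of Wnt7a that acts mainly through β-catenin, was 7.82, 7.67 and 7.75 from base to apex in the first P8 set and 7.61, 7.61 and 7.83 in the second, with apex minus base of 0.07 ± 0.25 (SE, n = 2, 95% interval -0.50 to 0.64). At P0 it was 8.33, 8.49 and 8.66 in the first set and 8.03 in the middle between a base of 7.81 and an apex of 8.07 in the second. Here the apex was higher in both sets, by 0.34 and 0.27, and the mean of 0.30 ± 0.25 did not pass (SE, n = 2, adjusted p = 1.0, and 0.675 with the set block).

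Wnt4, a ligand with roles in kidney and gonad formation, was 8.07 in the P0 base of either set, against 7.43 (middle) and 7.57 (apex) in the first set and 7.87 and 8.03 in the second. The lowest P0 value lay in the middle in both sets, and the size of the dip differed between them. Apex minus base was -0.28 ± 0.20 at P0 and 0.16 ± 0.20 at P8 (SE, n = 2 arrays per group, adjusted p = 1.0 at either age). Its other entry on the array read 7.11 to 7.80, with the P8 apex of the first set below its base, so that the entries disagreed on that direction. At P0 that entry was lowest in the apex of the first set (7.11, against 7.12 in the middle) and in the middle of the second (7.16).

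Among the other receptors, Fzd1, Fzd3 and Fzd6 each had a higher mean in the apex at either age, but the difference stayed under its SE for Fzd3 and Fzd6 at both ages, and that of Fzd6 at P0 turned to -0.05 after quantile normalization and to -0.03 with each array centred on its median. Fzd1, a receptor of the canonical branch, was 9.42, 9.56 and 9.62 from base to apex at P0 in the first set and 9.37, 9.40 and 9.57 in the second. The difference was 0.20 in each set, or 0.20 ± 0.13 (SE, n = 2, adjusted p = 1.0, and 0.681 with the set block), and 0.14 ± 0.13 at P8, where the signal was 9.27, 9.13 and 9.32 in the first set and 9.18, 9.29 and 9.42 in the second. These arrays differed little between sets, by -0.09 at P0 and 0.05 at P8.

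Fzd3 and Fzd6, receptors of the polarity branch, were set apart mainly by dissection set. At P8, Fzd6 was 10.14, 10.55 and 10.57 from base to apex in the first set but 9.47, 9.53 and 9.60 in the second, an offset of -0.89, and at P0 it was 9.60, 9.66 and 9.67 against 9.21, 9.25 and 9.19. Fzd3 was 9.56, 9.74 and 9.86 in the first P8 set against 9.02, 9.01 and 9.16 in the second, an offset of -0.66, and at P0 9.52, 9.87 and 9.86 against 9.35, 9.43 and 9.59. Within a set, apex minus base was 0.30 and 0.14 for Fzd3 at P8 and 0.43 and 0.13 for Fzd6. As means these were 0.22 ± 0.32 and 0.28 ± 0.43 (SE, n = 2 arrays per group, adjusted p = 1.0 for both, and 0.642 and 0.598 with the set block).

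No difference of Lgr5 along the axis was detectable. Its P0 signal was 9.45, 9.49 and 9.41 from base to apex in the first set and 10.42, 10.45 and 10.42 in the second, and its P8 signal was 9.40, 9.40 and 9.38 in the first set and 9.95, 9.81 and 10.03 in the second. Within a set the regions lay close together, and no array of the first set reached any array of the second. Apex minus base was -0.02 ± 0.48 at P0 and 0.03 ± 0.48 at P8 (SE, n = 2 arrays per group, adjusted p = 1.0 for both). With the pool as a block the 95% interval of the P8 difference was -0.20 to 0.25, which lies below a fold of 1.5 in either direction, while without the block it was -1.05 to 1.11.

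The offset of Lgr5 between the dissection sets, 0.98 at P0 and 0.54 at P8 (second minus first, mean of 3 regions), was the largest of any member at P0. Over all tested genes the median size of that offset was 0.22 at either age, and 2.60% of genes at P0 and 18.0% at P8 had a larger one. Lgr5 marks supporting cells, and the 11 supporting cell markers measured had mean signals of 9.15, 9.39 and 9.52 from base to apex in the first P0 set and 9.41, 9.70 and 9.78 in the second. That list was higher towards the apex in both sets, where Lgr5 was flat. The sets carry different years in their titles, and whether they shared an RMA run is not given. The parts of tissue composition, of the year and of the processing in the Lgr5 offset cannot be told apart and were not tested. This holds for the offsets of Fzd3 and Fzd6 as well.

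At P0 as a whole, no member passed between apex and base, in a comparison in which 0.00613% of all genes passed without the block and 0.675% with the set block. By limma 0 of the 10 reached an unadjusted p under 0.05 without the block, where 3.08% of all genes did, or with the set block, where 8.56% did. With the pool as a block 3 members reached it, against 13.7% of all genes. The methods' t-test, unpaired and unadjusted, gave 0 members at a fold of 1.5 or more, where 42 of the 16306 genes were called higher and 29 lower. The median difference was 0.16 for the members and 0.03 for all genes. In both sets the apex was higher for 5 of 10 members at P0 (31.8% of all genes) and for 7 of 10 at P8 (31.7%), and lower in both sets for 1 of 10 at either age (19.8% and 31.8% of all genes). Basal and apical arrays did not overlap for 5 of 10 members at P0, where 21.5% of all genes behaved so, and for 4 of 10 at P8, where 26.8% did. The P8 minus P0 change of the apex-base gap passed for 0 of 10 members, as for 0% of all genes without the block and 0.178% with it. At an unadjusted p under 0.05 limma counted 0 members without the block, against 2.04% of all genes, and 4 with the set block, against 6.52%.

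Axin2, the feedback target that reports canonical signalling, had the smallest p of the members between the ages in the model without a block. Its P0 signal was 8.94, 9.18 and 9.22 from base to apex in the first set and 9.01, 9.04 and 9.05 in the second. By P8 it was 8.25, 8.60 and 8.71 in the first set and 8.66, 8.53 and 8.77 in the second. Every P8 array lay below every P0 array, which held for no other member, 1 of 10 against 15.5% of all tested genes. P8 minus P0 was -0.49 ± 0.09 (SE, n = 6 arrays per age, mean of the regions, a fold of 1.40, adjusted p = 0.00648), and -0.60 and -0.38 in the sets. Along the axis Axin2 was higher in the apex by 0.17 ± 0.16 at P0 and by 0.29 ± 0.16 at P8 (SE, n = 2 arrays per group, adjusted p = 1.0 for both), and the P8 difference was 0.46 in the first set and 0.11 in the second.

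**Figure D3:**
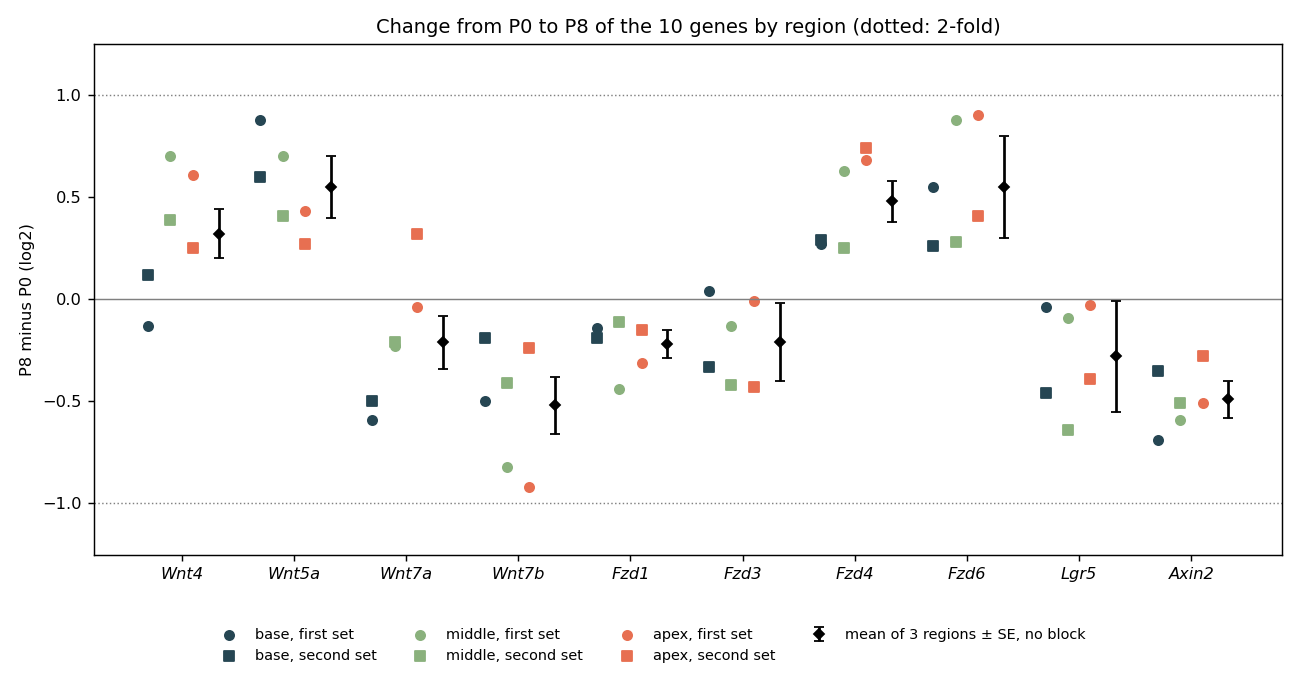
P8 minus P0 (log2) of each of the 10 genes, with a point for each region and dissection set (circles first set, squares second set, coloured by region). Black diamonds are the mean of the regions ± SE of the model without a block (n = 6 arrays per age), and dotted lines mark a 2-fold change. All 6 points of Axin2, Wnt7b, Fzd1 and Lgr5 lie below 0 and all 6 of Wnt5a, Fzd4 and Fzd6 above it, and no mean reaches a dotted line. The regions of an age and set share a pool, so that the points of a gene are not independent.

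From P0 to P8, no member reached a fold of 2 with an adjusted p under 0.05, where 3.20% of all tested genes did. At any fold, 4 of 10 had an adjusted p under 0.05 without the block, against 18.7% of all genes: Wnt5a and Fzd4 were higher at P8, and Wnt7b and Axin2 lower. P8 minus P0 was 0.55 ± 0.15 for Wnt5a (SE, n = 6 arrays per age, adjusted p = 0.0383) and 0.48 ± 0.10 for Fzd4 (adjusted p = 0.0131). Wnt7b changed by -0.52 ± 0.14 (adjusted p = 0.0380), by -0.75 in the first set and -0.28 in the second. The 6 arrays of an age come from 2 pools, and with the pool as a random block none of the 4 kept an adjusted p under 0.05 (0.133 for Wnt5a, 0.182 for Fzd4, 0.176 for Wnt7b and 0.211 for Axin2), where 5.47% of all genes did. With the dissection set as a fixed block, 9 of 10 had one, all but Fzd3, against 41.3% of all genes. Without single arrays, Axin2 and Fzd4 kept an adjusted p under 0.05 in all 12 fits, while Wnt5a kept it in 3, each without a P8 array of the second set, and Wnt7b in 3, each without a P0 array of the second set.

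The other members changed less clearly with age. Fzd6 was higher at P8 in all 6 pairs of region and set, by 0.55 ± 0.25 (SE, n = 6 arrays per age, adjusted p = 0.170), with 0.78 in the first set and 0.32 in the second. Fzd1 was lower in all 6 pairs, by -0.22 ± 0.07 (adjusted p = 0.0699). Wnt4 differed by 0.32 ± 0.12 (adjusted p = 0.0898), with the middle and apex higher at P8 in both sets and the base at -0.13 and 0.12. The other Wnt4 entry was higher at P8 in the base as well, from 7.29 to 7.52 in the first set and from 7.37 to 7.71 in the second. Lgr5 was lower in all 6 pairs, by -0.06 in the first set and -0.50 in the second as means of the regions (-0.28 ± 0.27, adjusted p = 0.544). The regions of an age and set share a pool, so that the 6 pairs of a gene are not independent. The share of all genes with all 6 pairs on one side of 0 was not counted. Wnt7a at -0.21 ± 0.13 (adjusted p = 0.308) and Fzd3 at -0.21 ± 0.19 (adjusted p = 0.485) had pairs on both sides of 0.

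Markers of the cell types in these pieces moved along the same axes. At P8 the mean signal of 11 supporting cell markers went from 8.90 (base) to 9.36 (apex) in the first set and from 8.99 to 9.74 in the second, with 10 of 11 higher in the apex, and that of 12 hair cell markers from 7.78 to 8.18 and from 7.89 to 8.42, with 12 of 12 higher. All 6 Schwann cell markers were higher in the apex too, with apex minus base of their mean at 0.28 and 0.46 in the sets. These 3 lists thus moved with Wnt7a and Fzd4, and their part in those differences was not tested. The 12 markers of endothelium and pericytes, cells in which Fzd4 acts with norrin, went the other way, from 9.03 to 8.93 and from 8.84 to 8.54, with 0 of 12 higher in the apex. The 11 markers of fibrocytes and mesenchyme went from 11.13 to 10.64 and from 10.67 to 10.45, downward like Wnt5a, and their part in that difference was not tested. Strial melanocyte markers (7 genes) had 0 higher in the apex, and macrophage markers 1 of 10.

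Between the ages, the 6 measured bone and osteoblast markers had mean signals of 6.88 to 7.53 on the P0 arrays and of 8.76 to 10.2 on the P8 arrays, and the 8 markers of dividing cells of 8.04 to 8.47 at P0 and of 6.81 to 7.17 at P8. Apex minus base of the bone list at P8 was -0.52 and -1.08 in the sets, in the direction of Wnt5a. Axin2 and Wnt7b were thus lower at P8 together with the markers of dividing cells, and Wnt5a and Fzd4 higher together with those of bone, of endothelium and pericytes (P8 minus P0 of 0.50 and 0.24 in the sets, 11 of 12 markers higher) and of macrophages (0.49 and 0.49, 10 of 10 higher). Further lists were higher at P8 in both sets: strial melanocytes (0.46 and 0.49), Schwann cells (0.57 and 0.18) and fibrocytes and mesenchyme (0.25 and 0.37). So were red blood cells (0.14 and 0.30) and hair cells (0.22 and 0.47, with 4 of 12 markers higher). The supporting cell list was lower (-0.20 and -0.26, with 5 of 11 markers higher). P8 minus P0 of the 11 spiral ganglion neuron markers was -0.83 and -0.84. The part of these shifts in the members' changes was not tested. Skeletal muscle markers read 8.06 in the first P0 apex and 6.70 to 7.18 on the other arrays. The part of muscle tissue in the members' changes was not tested.

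**Figure D4:**
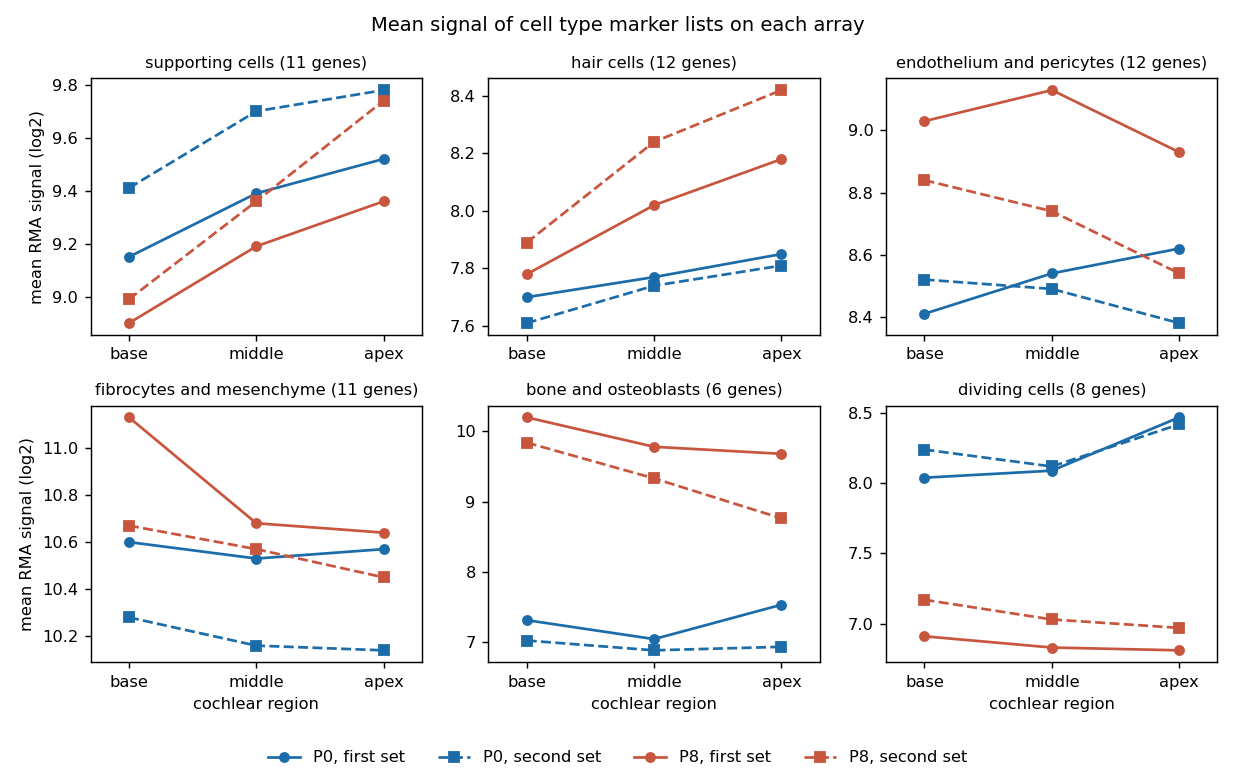
Mean RMA signal (log2) of 6 marker lists in base, middle and apex, with circles and solid lines for the first dissection set, squares and dashed lines for the second, blue for P0 and red for P8. Vertical scales differ between panels. Supporting and hair cell markers are higher at each step towards the apex in every P8 set, and the bone and dividing cell lists separate the ages on all arrays.

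Among the other genes of the pathway, 100 were listed by role and 98 tested. Between apex and base at P8 1 of them passed without the block, against 0.196% of all tested genes. It was Sfrp2, a secreted Frizzled-related protein that binds Wnt ligands, at 1.21 ± 0.18 (SE, n = 2 arrays per group, adjusted p = 0.0428). Its signal was 8.96, 9.80 and 9.99 from base to apex in the first set and 8.76, 9.59 and 10.15 in the second, upward at each step as in Wnt7a and Fzd4. Leaving out any of the 12 arrays took this call away, with differences of 1.11 to 1.31 and adjusted p of 0.0603 to 0.435, while with the set block it held in all 12 such fits.

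With the dissection set as a block, 8 of the 98 passed at P8, against 1.58% of all tested genes. Of the 8, 6 were higher in the apex and 2 higher in the base. The apical ones were Sfrp2, its relative Sfrp1 (1.12 ± 0.51, SE without the block, n = 2 arrays per group), Fzd7 (0.69 ± 0.16), a receptor of the same family as the members, Frzb (0.68 ± 0.25), another secreted Frizzled-related inhibitor, Nkd1 (0.63 ± 0.18), a target that dampens the pathway, and Celsr1 (0.61 ± 0.28), a core polarity cadherin. The basal ones were Sfrp4 (-0.89 ± 0.39), a further Frizzled-related protein that osteoblasts make, and Rspo3 (-0.65 ± 0.35), a ligand of the Lgr receptors. With that block, Fzd7 and Frzb kept an adjusted p under 0.05 in 4 of 12 fits that left out an array, Celsr1, Nkd1 and Rspo3 in 6, Sfrp4 in 9 and Sfrp1 in 11. With the pool as a fixed block all 8 and Ndp passed, where 2.81% of all genes did, and with the pool as a random block Rspo3 did not (adjusted p = 0.0509). The secreted inhibitors therefore went both ways, 3 of 14 higher and 1 of 14 lower in the apex, and over all 98 genes the median difference was 0.00.

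Fzd7 offers a comparison within the receptor family. Its P8 signal was 9.42, 10.32 and 10.20 from base to apex in the first set and 9.82, 10.15 and 10.42 in the second, so that the middle and apex lay above the base in both sets. Norrin, encoded by Ndp and chosen for its role as a ligand of Fzd4 after its values were seen, ran against its receptor. At P8, Ndp was 9.70, 9.0 and 8.78 from base to apex in the first set and 9.82, 9.58 and 9.33 in the second. Apex minus base was -0.71 ± 0.35 at P8 (SE, n = 2 arrays per group, adjusted p = 1.0 without a block, 0.0557 with the set block, 0.0109 and 0.0452 with the pool as a fixed and a random block) and -0.83 ± 0.35 at P0 (adjusted p = 1.0, and 0.0467 with the set block). Ndp and Fzd4 both had higher means at P8 than at P0, by 0.72 and 0.48.

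Between apex and base at P0, 0 of the 98 passed without the block, against 0.00613% of all tested genes. Limma counted 6 at an unadjusted p under 0.05, against 3.08% of all genes. The 3 with the smallest p were Daam1, a formin of the polarity branch, at 0.62 ± 0.15, Myc, a growth-promoting target, at 0.52 ± 0.15, and Fzd8, a Frizzled receptor, at 0.45 ± 0.15 (SE, n = 2 arrays per group, adjusted p = 0.615, 0.972 and 1.0). With the set block 3 passed, against 0.675% of all genes. They were the secreted inhibitor Wif1 at 0.93 ± 0.55 towards the apex, and Ndp and Sostdc1, an antagonist of BMP and Wnt signals, at -0.83 ± 0.35 and -0.79 ± 0.43. With the pool as a fixed block these and also Daam1, Celsr1 (0.61 ± 0.28) and Sfrp1 (0.69 ± 0.51) passed, each towards the apex. With the pool as a random block, Ndp, Celsr1 and Daam1 passed (adjusted p = 0.0333, 0.0389 and 0.0245), and Wif1, Sostdc1 and Sfrp1 did not (adjusted p = 0.0532, 0.0502 and 0.168).

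From P0 to P8, 8 of the 98 passed without the block, 4 higher and 4 lower, against 3.20% of all tested genes. The higher ones were Sfrp4 (3.77 ± 0.22, SE, n = 6 arrays per age), Wnt2b (1.53 ± 0.12), Notum (1.20 ± 0.16), which encodes an enzyme that inactivates Wnt ligands, and Wif1 (1.16 ± 0.32). The lower ones were Dact1 (-1.50 ± 0.10), an adaptor of Dishevelled, Sfrp2 (-1.22 ± 0.10), Sostdc1 (-1.07 ± 0.25) and Myc (-1.05 ± 0.09). Adjusted p ran from 1.78e-05 for Sfrp4 to 0.0331 for Wif1. All but Wif1 kept an adjusted p under 0.05 with the pool as a random block (0.0657 for Wif1) and in every fit that left out an array, where Wif1 kept it in 6 of 12 and lost it without a P8 array of the first set or a P0 array of the second. At P0 Sfrp4 lay near the level of 6 that was asked of a tested gene, at 5.73 to 6.57, and at P8 it reached 9.05 to 10.62.

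Wnt2b is the ligand with the highest change with age in the whole list. It read 6.93, 7.07 and 7.38 from base to apex in the first P0 set and 7.21, 7.07 and 6.99 in the second, against 8.09, 8.66 and 8.74 and 8.57, 8.85 and 8.94 at P8. All P8 arrays lay above all P0 arrays. Among the feedback targets the genes went both ways with age: Axin2 and Myc were lower at P8, and Notum, at 7.41 to 8.17 over the P0 arrays and 8.66 to 9.47 over the P8 arrays, was higher.

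For the change of the apex-base difference between the ages, 0 of the 98 passed without the block, as for 0% of all tested genes. Limma counted 1 at an unadjusted p under 0.05, against 2.04% of all genes. The smallest p belonged to Sfrp2 at 1.02 ± 0.25, Sfrp4 at -1.21 ± 0.55 and Myc at -0.47 ± 0.22 (SE, n = 2 arrays per group, adjusted p = 1.0 for each). With the set block Sfrp4 and Wif1 (-1.20 ± 0.77) passed, at adjusted p of 0.0387 and 0.0473, where 0.178% of all genes did. With the pool as a random block Sfrp4 and Sfrp2 passed (adjusted p = 0.0338 and 0.0204) and Wif1 did not (0.134), while all 3 passed with the pool as a fixed block.

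**Figure D5:**
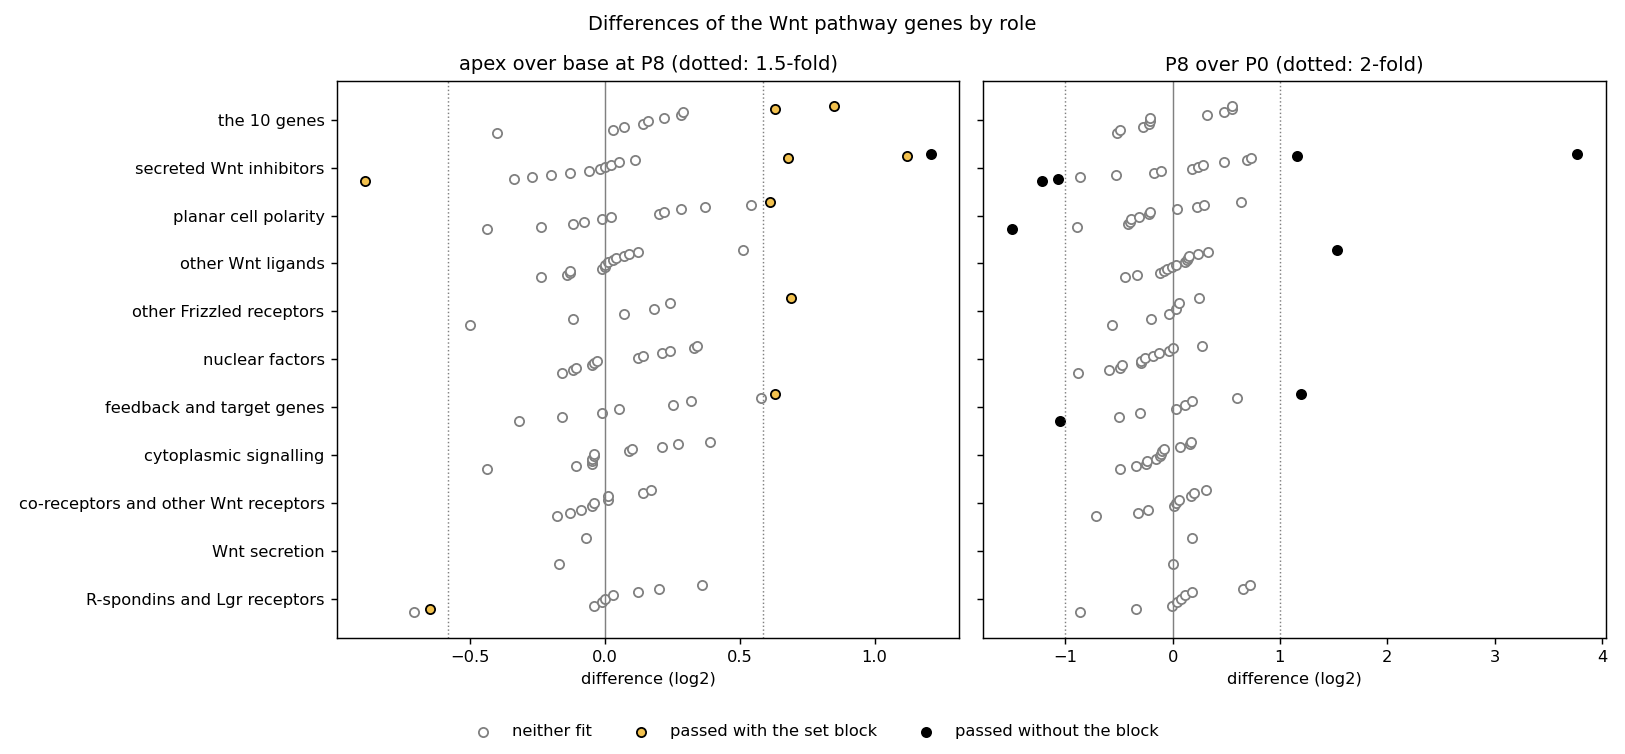
Log2 difference of the 98 other Wnt pathway genes, in rows by role, and of the 10 genes in the top row, for apex over base at P8 (left) and P8 over P0 (right). Each point is a gene, filled black where it passed the test without a block, yellow where it passed only with the dissection set as a block, and dotted lines mark the fold asked for. On the left Wnt7a at 0.85 and Fzd4 at 0.63 are yellow, and on the right no member is filled.

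The genes whose pattern was most like that of a member were found by Pearson's r over the 12 arrays, after the mean of each dissection set was taken off, with 2 genes named for each member. For Wnt7a these were Hs6st2 (r = 0.967) and Ptpru (r = 0.964). For Fzd4 they were Cubn (0.982) and Ano4 (0.976), and for Wnt5a Ggct and Lrp2 (0.986 each). Axin2 was most like Zfp704 (0.988) and Crtc1 (0.983), and Lgr5 most like Mir505 (0.973) and Ankrd42 (0.966). For Fzd6 they were Cacna1d (0.994) and Atp6v1b2 (0.989), and for Wnt7b Dcaf7 (0.990) and Zbtb12 (0.988). Fzd1 was paired with Hpn (0.965) and Tpbg (0.961), Fzd3 with C2cd3 (0.979) and Btrc (0.965), and Wnt4 with Nmnat3 (0.967) and Vwa3a (0.962). The 12 arrays share 4 pools and the step between the ages, and each of these is the highest of 16306 genes, so that r is a description. Among the members themselves r ran from -0.93 between Wnt5a and Axin2 to 0.92 between Wnt7b and Fzd1.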

How the data were processed

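The deposited values are log2 signals, which the authors made from the scanned arrays with robust multiarray averaging (RMA). The version of RMA, and whether all 12 arrays went through a single run, are not given in the sources used here. Probe-level data were not used here. Of 35556 entries, 21789 carried 1 gene symbol in the platform annotation, 1621 carried several and 12146 none. Only the first were used. Of 19938 genes, the 16306 whose mean passed 6 on the log2 scale in some group were tested, a level that the study's methods name. Median signals of these genes ran from 8.02 to 8.19 over the arrays.

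Differences were fitted with limma 3.58.1 in R 4.3.3 (lmFit and eBayes, 6 group means, 6 residual and 2.78 prior degrees of freedom), without a block because the study's methods name an unpaired test. P-values were adjusted by Benjamini-Hochberg over the 16306 genes, and the fold asked for was 1.5 between apex and base, 2 between ages and none for the interaction. Folds are the size of the change in either direction. The set number pairs the samples of an age, since base, middle and apex of an age and set come from the same pooled cochleae according to the study's methods. Between the ages it marks the dissection set, which the sample titles label with a year that differs between the first set and the second. Deviations from the group means correlated at 0.544 to 0.916 over 15 pairs of groups, so that p-values between the ages measure the spread between arrays of few pools. The set as a fixed block, the pool as a fixed or random block (consensus correlation 0.689), other filters and scalings, the mean of all entries, fits of the compared groups only, the methods' t-test and each array left out in turn were tried. Scripts were tested on simulated data.

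The members and gene lists were chosen with earlier results of these data known. All members are named. Of the other Wnt genes, those past the test are named, otherwise the 3 with the smallest p, and those that passed with a set or pool block were added after their values were seen. Promoters come from RefSeq, build GRCm38.p6. Tables and figures used Python 3.11.15, pandas 2.3.3, numpy 2.4.6 and matplotlib 3.10.9.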

Additional observations from a re-analysis of the deposited data

How the results depend on the processing

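Between apex and base at P8, 0 members passed without a block, but 2 (Wnt7a and Fzd4) passed with the dissection set or the pool as a fixed replicate block, with the pool as a random block and by the methods' t-test unadjusted (0 after Benjamini-Hochberg). With the set block and 1 array left out in turn, an alternative chosen after seeing the data, 0 to 2 members passed. Between the ages, the count at an adjusted p under 0.05 and any fold, a count added after seeing the data, was 4 in the model without a block, 9 with the set block, 0 with the pool as a random block, 2 after quantile normalization, 7 by the unadjusted t-test and 2 to 4 with 1 array left out. Of the 16306 tested genes, 3050 were counted so without a block, 3115 after quantile normalization and 5895 by the unadjusted t-test. Between apex and base at P8, the unadjusted t-test called 114 of all tested genes higher and 41 lower. The other 3 counts of members past the test stayed at 0 under every alternative run. The 40 differences of the members and those of Wnt7a and Fzd4 with the set block gave 894 comparisons with an alternative, of which 807 kept direction and side of the threshold, 34 lost it, 20 gained it and 33 changed sign. All reversed values belong to differences smaller than their SE in the model without a block. After quantile normalization and with median centring, Fzd6 at P0 turned to -0.05 and -0.03, while the P8 minus P0 change of the apex-base gap turned for Fzd1 to 0.05 and 0.02 and for Fzd3 to 0.01 and 0.01. With 1 array left out, apex minus base at P0 ran from -0.22 to 0.27 for Fzd6, -0.52 to 0.49 for Lgr5, -0.18 to 0.16 for Wnt5a and -0.13 to 0.45 for Wnt7a. At P8 it ran from -0.13 to 0.57 for Fzd3, -0.21 to 0.77 for Fzd6, -0.30 to 0.35 for Lgr5 and -0.04 to 0.17 for Wnt7b. The change of that difference ran from -0.08 to 0.33 for Axin2, -0.42 to 0.28 for Fzd3, -0.24 to 0.74 for Fzd6, -0.46 to 0.55 for Lgr5 and -0.53 to 0.06 for Wnt7b. The cause was not tested. Of 735 comparisons for the other named Wnt genes, 636 kept direction and side, 58 lost the threshold, 41 gained it and 0 changed sign. Sfrp2 between apex and base at P8 had an adjusted p of 0.0832 after quantile normalization. Over all genes, the set block raised the calls from 1 to 110 at P0 and from 32 to 257 at P8, while fits of the compared groups only gave 0 at either age, with 263 and 491 genes at an unadjusted p under 0.05. The pool as a fixed block cannot be estimated between the ages, and the t-test of 2 groups gives no change of the apex-base difference, so neither was run there. Leaving out an array leaves its group with 1, assumed to vary like the others. Signal over background on the arrays was not analysed here.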
